A study of Mus musculus with 6 samples.

Results

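The Hedgehog genes described here are the ligand gene Shh, the receptor genes Ptch1 and Smo, the co-receptor genes Cdon and Gas1, the ligand-binding inhibitor gene Hhip and the transcription factor genes Gli1, Gli2 and Gli3. They were taken by name, as every probe set (a group of array oligonucleotides for one transcript) annotated to exactly 1 of these symbols. All 9 genes were on the array, with 15 of 22626 probe sets. Of the 9, 5 had more than 1 probe set and 4 had a single one.

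Tissue came from mouse embryos of strain C57BL/6 at 9.5 days post coitum. The mutant embryos carried the Dll3neo allele, also named tm1Rbe, on both chromosomes, and the wild-type embryos were Dll3+/+. Dll3, a divergent ligand of the Notch family, is required for the regular cutting of somites, and the study asked which genes of somite-level tissue depend on it. RNA was hybridised to Affymetrix MOE430A arrays from 3 mutant pools and 3 wild-type pools of embryos, 1 array per pool. The dissection kept the trunk from the level of the otic placode back to the youngest somite and removed heart and endoderm, so it held the neural tube and further tissues of the trunk beside the somites. The pools are described as biological replicates, and the sources used here do not state how many embryos each held.

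In the trunk, Shh protein is made by the notochord and by the floor plate of the neural tube. It binds Ptch1, a membrane protein that otherwise holds the transducer Smo inactive, and active Smo changes the balance of Gli activator and repressor forms in the nucleus. The signal patterns the ventral neural tube and induces the sclerotome, the ventral somite part that forms vertebrae and ribs. Ptch1, Gli1 and Hhip are themselves transcribed in response to the signal and are commonly read as its output.

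Promoter windows from RefSeq (build GRCm38.p6) were found for 7 of the 9 genes, all but Shh and Gli1. The windows of Ptch1 and Hhip are shown because these are the Hedgehog-induced inhibitors of the pathway whose transcript levels serve as its readout. Each covers the 250 bases before the annotated start, on the gene's own strand, at chr13:63565736-63565985 (minus strand) for Ptch1 and chr8:80058009-80058258 (minus strand) for Hhip. Capitals mark CCACCC, the core of the Gli consensus GACCACCCA, and both motifs were searched on both strands.
Ptch1: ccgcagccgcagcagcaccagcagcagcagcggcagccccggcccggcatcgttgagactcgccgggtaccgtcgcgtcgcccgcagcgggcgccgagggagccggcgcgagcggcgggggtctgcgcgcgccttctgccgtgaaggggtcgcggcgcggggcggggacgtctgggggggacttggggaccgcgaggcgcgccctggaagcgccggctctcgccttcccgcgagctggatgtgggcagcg
Hhip: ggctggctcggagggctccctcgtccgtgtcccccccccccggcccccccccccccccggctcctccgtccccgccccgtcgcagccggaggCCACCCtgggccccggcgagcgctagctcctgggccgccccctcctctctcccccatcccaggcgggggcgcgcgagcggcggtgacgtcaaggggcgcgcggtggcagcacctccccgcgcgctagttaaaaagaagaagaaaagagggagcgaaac
The full consensus occurred in none of the 7 windows, against 0.225% of all 32851 windows. The core occurred in 4 of the 7 (Gli2, Smo, Hhip and Gli3), against 28.1% of all windows. Those 4 windows held 67.2% to 76% G and C. The windows without a core held 78.4% (Ptch1), 58.8% (Gas1) and 42.8% (Cdon). The share among windows of like G and C content was not computed, so no enrichment is read from this count. The Hhip core began 158 bases before the start. A match or its lack describes the letters of the window only. Motif and window were chosen for their place in the pathway and not from any difference between genotypes.

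No Hedgehog gene differed between genotypes past the threshold. Of the 15 probe sets, 9 had a positive log2 difference (mutant minus wild-type) and 6 a negative one, from -0.20 (Ptch1) to 0.15 (Gas1). By the mean of its probe sets, 6 genes were above 0 and 3 below. Over the whole array 51.5% of probe sets and 51.9% of genes were above 0. None of the 15 reached an adjusted p of 0.05 in limma (lmFit and eBayes, genotype only, Benjamini-Hochberg over all probe sets), and the background was 0% of 22626. Their unadjusted p-values ran from 0.123 to 0.935, so 0 of 15 were under 0.05, against 2.63% of all probe sets. The median of the member probe sets was 0.01, beside 0.0034 over all probe sets. Their median absolute difference was 0.079, beside 0.063 over all.

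Values are linear ratios, each set against a level of the same probe set that is near its median over the 6 pools. A ratio keeps no signal level, so it can be compared between pools but not between genes, and whether a gene was detected at all cannot be read. In dissected tissue, fewer cells of a type and less RNA per cell cannot be told apart.

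**Figure D1:**
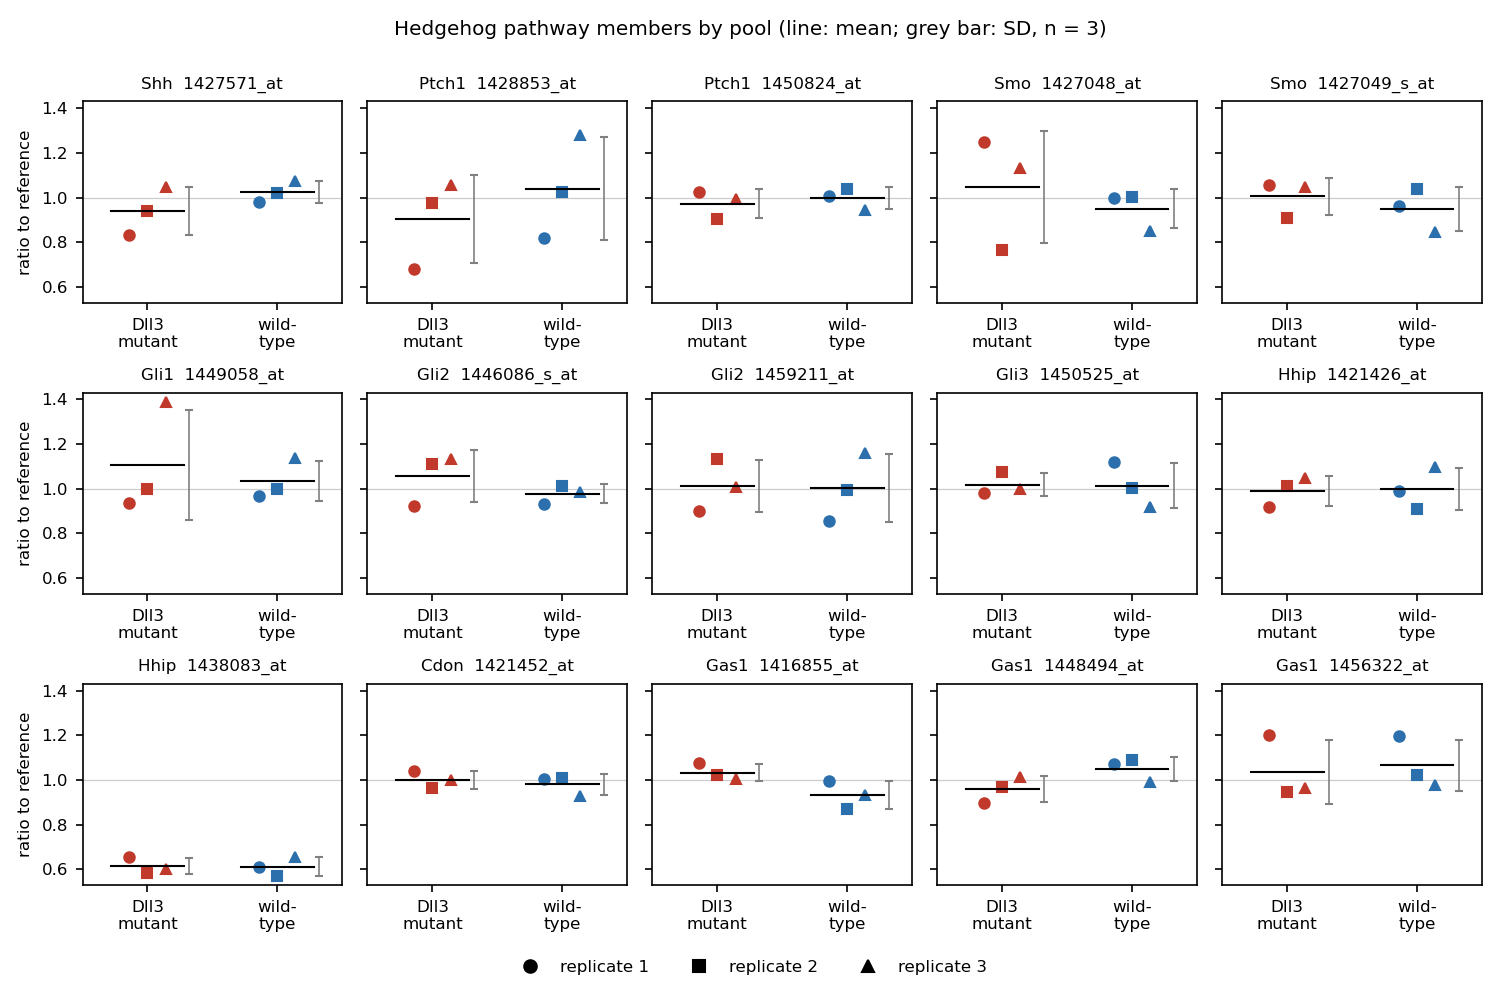
Deposited ratio (vertical axis, linear, 1 being the level each probe set is set against) in the 3 Dll3 mutant pools (red, left) and the 3 wild-type pools (blue, right) for each of the 15 probe sets, with marker shape giving the replicate number, a line at the group mean and a grey bar for the SD. The groups overlap in 14 of the 15 panels, the exception being Gas1 1416855_at, and the widest spread is that of Ptch1 1428853_at, between 0.680 and 1.278.

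Shh, the ligand gene, was read by 1 probe set, 1427571_at. Its ratio was 0.833, 0.940 and 1.045 in mutant replicates 1, 2 and 3, against 0.978, 1.022 and 1.074 in wild-type replicates 1, 2 and 3. The groups overlapped, since mutant replicate 3 lay above wild-type replicates 1 and 2. Its mean was 0.939 ± 0.106 in mutant pools and 1.02 ± 0.048 in wild-type pools (SD, n = 3 each). Between genotypes the log2 difference was -0.13 (SE 0.101, 95% interval -0.35 to 0.09), with a limma adjusted p of 0.99996. On the linear scale the interval runs from 0.783 to 1.07 times the wild-type ratio. Without mutant replicate 1, the lowest pool, the difference was -0.05.

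Shh comes from few cells of this tissue, so markers of its sources were followed as a list. Of 13 measured notochord and floor plate genes other than Shh, 8 were above 0 and 5 below, with a median of 0.01 beside 0.0035 over all 12393 genes, and 0 of their 18 probe sets passed the adjusted threshold. Their mean log2 ratio ran from -0.03 to 0.09 over the mutant pools and from -0.08 to 0.05 over the wild-type pools. Foxa1, a forkhead factor of floor plate and endoderm, was at 0.37 (SE 0.189), with mutant ratios of 1.080, 0.920 and 1.507 against wild-type ratios of 0.765, 0.787 and 1.154. The ciliogenesis factor gene Foxj1 (0.18) had all mutant pools above all wild-type pools (3.98% of all genes), and Ferd3l (-0.11), a bHLH factor gene of the floor plate, had all of them below (3.49% of all genes). T and Noto, both classical notochord markers, were listed but matched no single-gene probe set under those symbols. Probe set symbols had first been updated to RefSeq, and list names had not. Neither gene was analysed here, and whether the array reads them was not tested. A probe set carrying another symbol for either gene would be missed this way.

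Gut endoderm also makes Shh and was taken away in the dissection. Its 12 marker genes split into 6 above 0 and 6 below, with a median of 0.03. Their mean log2 ratio was between -0.12 and 0.12 in mutant pools and between -0.10 and 0.15 in wild-type pools. Sox17, an endoderm factor, was at 0.21 (SE 0.110) by one probe set and -0.02 by the other. Its gene means differed by 0.10 and overlapped between genotypes. The apolipoprotein gene Apoa4, at -0.12, had gene means that did not overlap. Its 3 mutant pools were between 0.957 and 0.976, below the lowest wild-type pool at 0.983. The part of either source in the Shh ratio was not tested.

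Ptch1 is both the Shh receptor and a target of the signal. By probe set 1428853_at its ratio was 0.680, 0.977 and 1.054 in mutant pools, against 0.818, 1.023 and 1.278 in wild-type pools. In each genotype replicate 1 was lowest and replicate 3 highest, and the spread within a genotype was wider than the gap between the means. The log2 difference was -0.20 (SE 0.181, 95% interval -0.60 to 0.19) and a limma adjusted p of 0.99996. This was the largest absolute difference among the 15, and its SE was larger than that of 99.2% of all probe sets. Leaving out mutant replicate 1 gave -0.01, and leaving out wild-type replicate 1 gave -0.36. A fit with a sex score as covariate gave 0.012 (SE 0.323). The sex score, Xist minus the mean of the Y-linked genes Eif2s3y, Kdm5d and Uty on the log2 scale, was 0.04, 0.81 and 0.73 in mutant pools and -0.08, -1.48 and -1.73 in wild-type pools. Every mutant score lay above every wild-type score, so that fit separates sex mix from genotype poorly, for this and every other probe set. The part of sex mix in the Ptch1 ratio was not tested.

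The other Ptch1 probe set, 1450824_at, was flat. It read 1.024, 0.902 and 0.993 in mutant pools, against 1.007, 1.040 and 0.944 in wild-type pools. Its log2 difference was -0.04 (SE 0.090, 95% interval -0.23 to 0.16). The pools that were extreme by one probe set were not so by the other, and the Pearson correlation of the pair over the 6 pools was -0.45, given as a description. The sources used here do not place these probe sets along the gene.

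Smo, the transducer that Ptch1 holds inactive, had a pair of probe sets that shared a pattern (Pearson r = 0.84 over the 6 pools, as a description). By 1427048_at the ratio was 1.247, 0.765 and 1.131 in mutant pools, against 0.997, 1.003 and 0.849 in wild-type pools. The mutant pools held both the highest and the lowest value. This gave a log2 difference of 0.12 (SE 0.160, 95% interval -0.24 to 0.47), which became 0.33 when mutant replicate 2 was left out and -0.03 when mutant replicate 1 was. By 1427049_s_at the difference was 0.09 (SE 0.104, 95% interval -0.14 to 0.32), with mutant ratios of 1.056, 0.910 and 1.049 and wild-type ratios of 0.963, 1.037 and 0.844. Leaving out mutant replicate 2 gave 0.16 for this probe set, and leaving out wild-type replicate 3 gave 0.0048. Mutant replicate 2 was the lowest mutant pool by either, and wild-type replicate 3 the lowest wild-type pool.

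Gas1 and Cdon encode cell-surface proteins that bind Shh and help present it to Ptch1. Gas1 had 3 probe sets, and they gave different signs. By 1416855_at the ratio was 1.076, 1.020 and 1.003 in mutant pools, against 0.997, 0.869 and 0.934 in wild-type pools, so every mutant pool lay above every wild-type pool. The log2 difference was 0.15 (SE 0.089, 95% interval -0.05 to 0.34), and it had the smallest unadjusted p of the 15 (limma adjusted p = 0.99996). Groups did not overlap in 7.46% of all probe sets (4.07% with the mutant pools higher), and 1 of 15 is near that share.

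By 1448494_at the Gas1 ratio was 0.895, 0.969 and 1.011 in mutant pools, against 1.070, 1.091 and 0.989 in wild-type pools. The difference was -0.13 (SE 0.089, 95% interval -0.33 to 0.06), and the groups overlapped through mutant replicate 3 and wild-type replicate 3. It was -0.084 when mutant replicate 1 was left out. By 1456322_at it was -0.04 (SE 0.117), and both pools numbered 1 stood high, at 1.203 for mutant and 1.196 for wild-type, while the other 4 lay between 0.946 and 1.023. The first 2 of these probe sets correlated at -0.75 over the 6 pools, as a description, and the mean of the 3 gave a gene difference of -0.01. Which of them reads Gas1 best cannot be told from ratios.

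Cdon, by its single probe set 1421452_at, had the narrowest range of the 15 as a fold, 1.12 from lowest to highest pool. It read 1.040, 0.962 and 0.998 in mutant pools, against 1.002, 1.009 and 0.928 in wild-type pools. Its log2 difference was 0.03 (SE 0.085, 95% interval -0.16 to 0.22). A ratio above 1.16 times the wild-type one, or below 0.897 times it, lies outside that interval.

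Hhip encodes a membrane-bound protein that takes up Hedgehog ligand and limits its range. By 1421426_at it read 0.917, 1.011 and 1.046 in mutant pools, against 0.989, 0.910 and 1.096 in wild-type pools. That gave a log2 difference of -0.01 (SE 0.098, 95% interval -0.23 to 0.21). By 1438083_at it read 0.656, 0.584 and 0.603 in mutant pools, against 0.610, 0.569 and 0.653 in wild-type pools. That difference was 0.01 (SE 0.092, 95% interval -0.19 to 0.21). This second row was 1 of 1497 in the table whose median lies below 1, and the sources used here do not say why such rows differ. Groups overlapped by either probe set, and the gene mean differed by 0.0005.

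Gli1 is a transcriptional activator and a direct target of the signal. Its probe set, 1449058_at, read 0.934, 0.999 and 1.390 in mutant pools, against 0.967, 1.001 and 1.138 in wild-type pools. In both genotypes replicate 3 stood above the others, most in the mutant. The group means were 1.11 ± 0.247 in mutant pools and 1.04 ± 0.091 in wild-type pools (SD, n = 3 each). The log2 difference was 0.08 (SE 0.140, 95% interval -0.23 to 0.39) and a limma adjusted p of 0.99996. Without mutant replicate 3 it was -0.10, and without both pools numbered 3 it was -0.03, so its direction rested on that pool.

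Gli2, the main activator downstream of Smo, had probe sets 1446086_s_at and 1459211_at. The first read 0.923, 1.113 and 1.135 in mutant pools, against 0.932, 1.014 and 0.986 in wild-type pools, with a log2 difference of 0.11 (SE 0.100, 95% interval -0.11 to 0.33). Leaving out mutant replicate 1 gave 0.20, and leaving out mutant replicate 3 gave 0.053. The second read 0.900, 1.131 and 1.006 in mutant pools, against 0.856, 0.994 and 1.160 in wild-type pools, with a difference of 0.02 (SE 0.124, 95% interval -0.26 to 0.29). In both genotypes replicate 1 was the lowest by either. Gli3, which acts mostly as a repressor of Hedgehog targets, read 0.980, 1.077 and 0.998 in mutant pools, against 1.119, 1.002 and 0.919 in wild-type pools, by 1450525_at. The mutant pools lay inside the wild-type range, and the difference was 0.01 (SE 0.097, 95% interval -0.20 to 0.22). In the fit with the sex score it was -0.23 (SE 0.161, limma adjusted p = 0.99980).

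**Figure D2:**
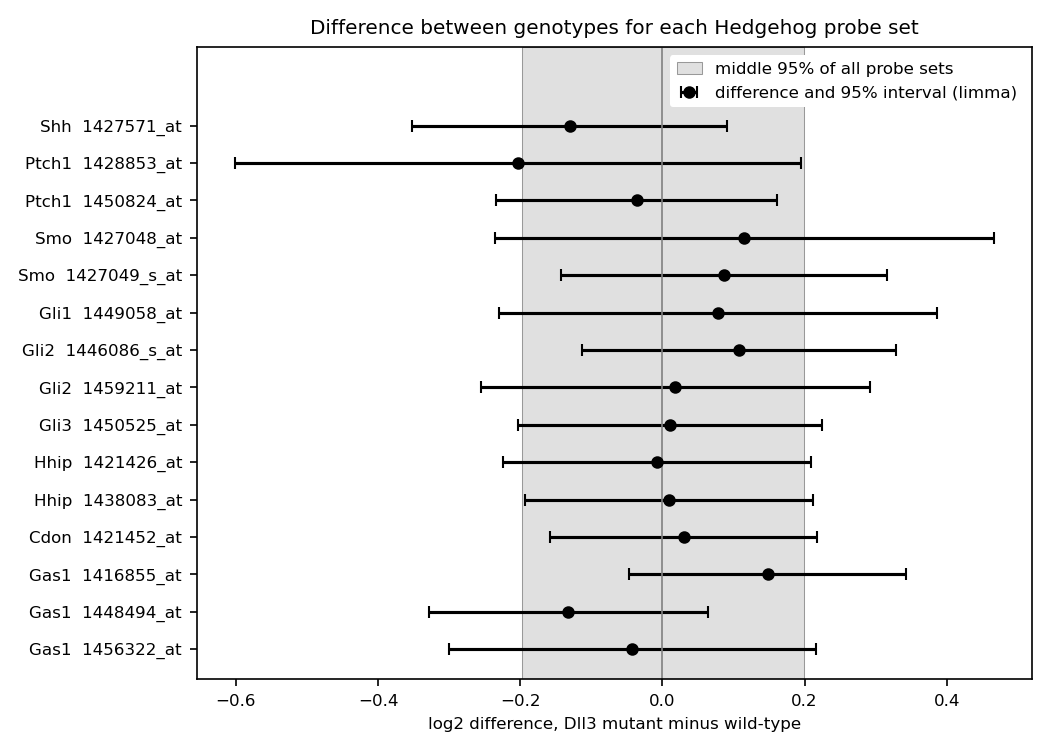
Log2 difference, Dll3 mutant minus wild-type, for each of the 15 probe sets (points, with 95% limma intervals as bars), with the middle 95% of all 22626 differences shaded. All 15 intervals hold 0, they reach from -0.60 to 0.47 at the extremes, and every point but that of Ptch1 1428853_at lies in the shaded range of -0.198 to 0.199.

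A moderate change in ratio could lie within these intervals, while a large one would lie outside them. They bound the array ratio only. Since detection cannot be read from ratios, they set no limit on the change in transcript. The median SE was 0.1 for the members and 0.099 for all probe sets. On the same 6 arrays, the SE of single members ran from 0.085 (Cdon) to 0.181 (Ptch1 1428853_at). The smallest p that an exact permutation test of 3 against 3 pools allows is 0.1. Over the 15 probe sets, no interval held a ratio below 0.659 times or above 1.38 times the wild-type one.

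The order of the 6 pools was also described for the members, and a pool effect was not tested. Mutant replicate 1 held the highest value of the 6 pools in 6 of the 15 probe sets and the lowest in 5. The share over all probe sets was not computed for this count, so it is not read as a trait of the members. For 3 probe sets, those of Shh and Gli1 and 1428853_at of Ptch1, replicate 1 was the lowest and replicate 3 the highest pool in both genotypes. The same held for 7.52% of all probe sets. The mutant pool was the lower of every same-numbered pair for 2 of the 15, Shh and Ptch1 1428853_at (11.8% of all probe sets). It was the higher of every pair for 1, Gas1 1416855_at (12.6% of all). Replicate numbers are names and have no order of their own, and no label ties a number to a day or litter.

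**Figure D3:**
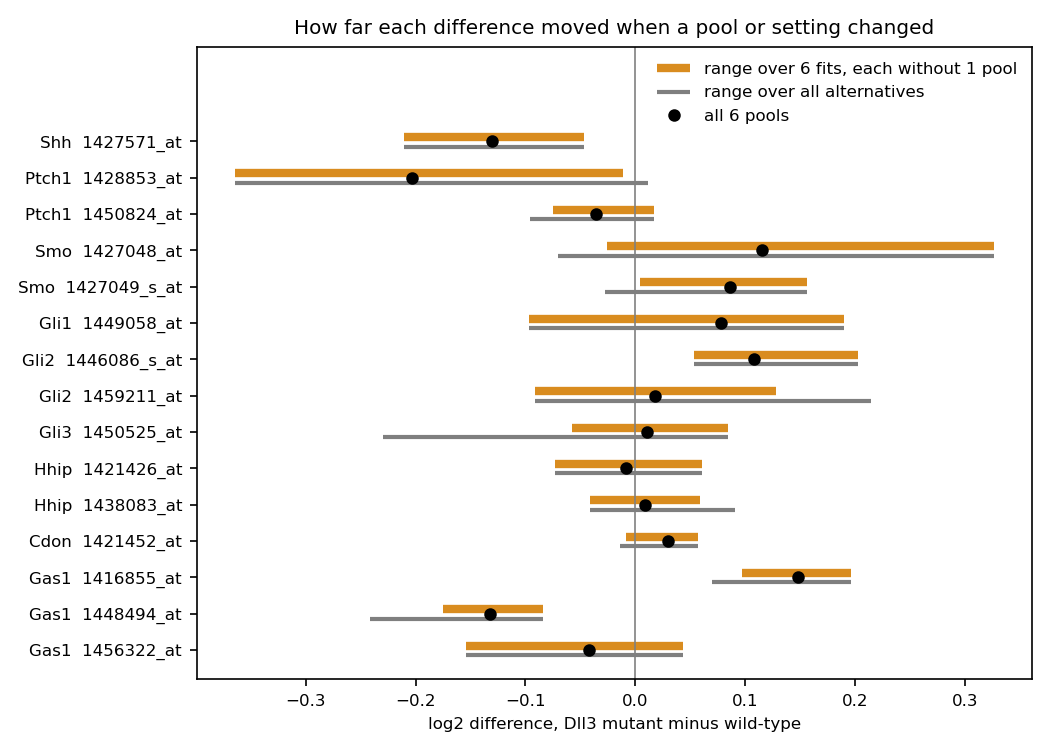
Log2 difference, Dll3 mutant minus wild-type, of each probe set with all 6 pools (black points), its range over 6 fits that each leave out 1 pool (orange) and its range over all alternatives (grey). The orange range of Shh stays between -0.21 and -0.05, that of Gli1 crosses 0 between -0.10 and 0.19, and that of Ptch1 1428853_at runs from -0.36 to -0.01.

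The genes whose pattern over the 6 pools was most like that of Shh were Stam (Pearson r = 0.992), Ager (0.984) and Ythdf1 (0.983), over 12392 other genes compared. For Ptch1, by the mean of its 2 probe sets (r = -0.45 between them), they were Tut7 (0.995), Brca1 (0.989) and Acvr1 (0.988). For Gli1 they were Clps, Usp10 and Tspan5 (0.991 to 0.992). With 6 pools such values are common: 38 genes exceeded a correlation of 0.95 with Shh, 54 with Ptch1 and 58 with Gli1. They are given as a description. None of the 9 genes here was among the 3 nearest of these.

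The rest of the pathway was read through lists. They held 78 measured genes with 131 probe sets, of which 41 genes were above 0 and 37 below, with a median of 0.003. No probe set passed the adjusted threshold, and 1.53% had an unadjusted p under 0.05, below the 2.63% of all probe sets. Gene means did not overlap between genotypes for 5 of the 78 (6.41%), against 7.46% of all genes.

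Among 5 other genes of ligand production and release, 2 were above 0 and 3 below (median -0.06). Hhat, which adds palmitate to Hedgehog proteins, was at 0.12 (SE 0.098), and Dhh, the Desert hedgehog ligand gene, at -0.14 (SE 0.083) by the probe set of smallest p and 0.02 by the other. Among 5 other receptor and co-receptor genes 3 were above 0, with a median of 0.01. The glypican gene Gpc4 was at 0.07 (SE 0.084), and Gpc6 at -0.15 (SE 0.097) by one probe set and 0.10 by the other. Each gene of both lists had groups that overlapped.

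Among 18 genes of intracellular transduction, 9 were above 0 and 9 below (median -0.01). Prkar1a, the regulatory subunit gene of the protein kinase A that restrains Gli activity, was at 0.08, with ratios of 1.032, 1.008 and 1.007 in mutant pools and 0.941, 0.944 and 1.002 in wild-type pools. These groups did not overlap, by a narrow margin. The casein kinase gene Csnk1e was at 0.18 (SE 0.098) by one probe set and -0.11 by the other, and Rab23, a negative regulator of the pathway, at -0.16 (SE 0.116) and 0.02. In the list of the primary cilium, the organelle in which Smo acts, 7 of 9 genes were above 0, with a median of 0.04. Of all genes, 51.9% were above 0. Kifap3, a subunit of the kinesin that drives intraflagellar transport, was at 0.26 (SE 0.116, limma adjusted p = 0.99996) by one probe set. By the other it was at 0.05, and its gene means did not overlap between genotypes. Its partner Kif3a was at 0.13 (SE 0.083) and 0.10, with gene means that overlapped.

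**Figure D4:**
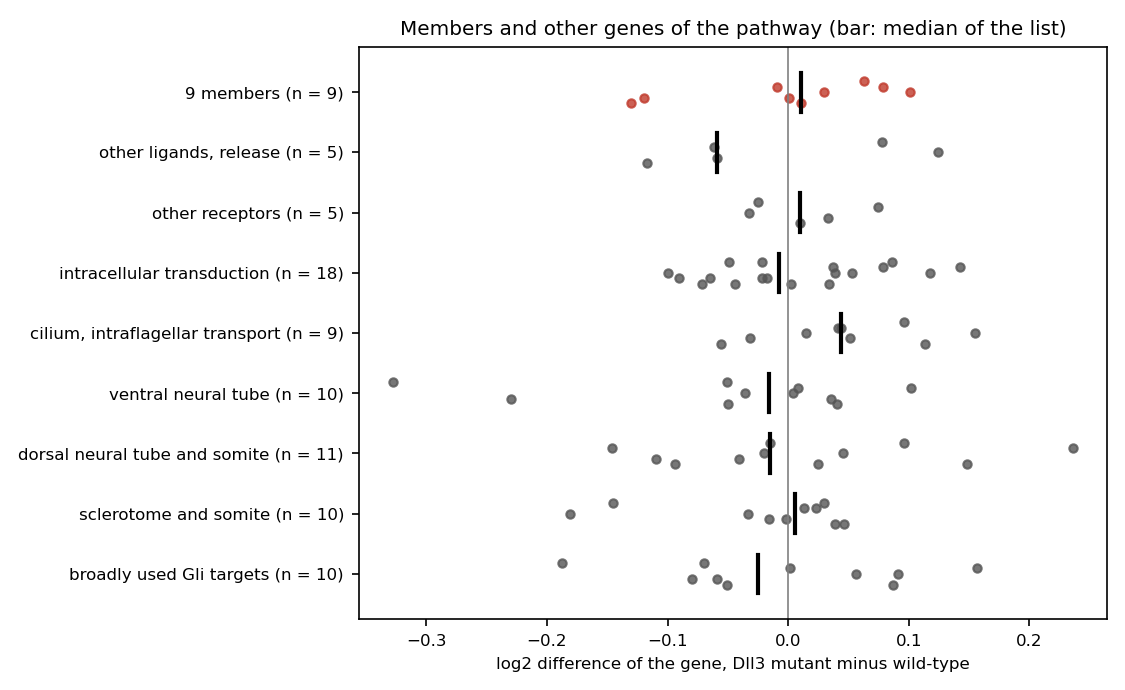
Log2 difference of each gene (mean of its probe sets), Dll3 mutant minus wild-type, for the 9 members (red) and for 8 lists of other pathway and target genes (grey), with a black bar at each median. The medians lie between -0.06 and 0.04, and the points farthest from 0 are Mnx1 at -0.33 and Zic1 at 0.24.

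Genes that depend on Hedgehog signal in the ventral neural tube were above 0 for 5 of 10 and below for 5, with a median of -0.02. Mnx1, a motor neuron factor gene, was the farthest, at -0.33 (SE 0.126, 95% interval -0.61 to -0.05, limma adjusted p = 0.99996). Its ratio was 0.983, 0.683 and 0.894 in mutant pools, against 1.116, 1.046 and 1.017 in wild-type pools, so the groups did not overlap and mutant replicate 2 stood lowest. Isl1, also of motor neurons, was at 0.15 (SE 0.107) and 0.05 by its probe sets. Of the other 8 genes, all with overlapping groups, the ventral progenitor factor gene Olig2 was at -0.23 and the rest lay between -0.05 and 0.04.

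The dorsal genes that the signal restrains were above 0 for 5 of 11 and below for 6, with a median of -0.02. Msx1, a dorsal homeobox gene, was at -0.19 (SE 0.087) and -0.10 by its probe sets, with gene means that did not overlap, and Zic1, a dorsal zinc finger gene, was at 0.24 (SE 0.145). Of 10 genes of the sclerotome and somite that need the signal, 5 were above 0 and 5 below (median 0.01). The early myogenic gene Myf5 was at -0.18 (SE 0.119) and Foxc2, a sclerotome factor gene, at -0.15 (SE 0.178), both with overlapping groups. Pax1 and Pax9, which mark the sclerotome, were at 0.04 and -0.02. Of 10 broadly used Gli targets 5 were above 0. Foxm1, a cell cycle factor gene, was at 0.17 (SE 0.090) by one of its 4 probe sets. The lowest of the 4 was at -0.06, and the mean of the 4 at 0.09. The cyclin gene Ccnd1 was at -0.14 (SE 0.083) by one of its 3 probe sets, the highest of which was at 0.04. Its gene means, with a difference of -0.05, did not overlap between genotypes.

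Markers of the tissues in the dissection were set beside these values. Neural progenitor genes were above 0 for 7 of 8 (median 0.05), beside 51.9% of all genes. Their mean log2 ratios were -0.09 to 0.16 in mutant pools and -0.09 to 0.03 in wild-type pools. Fabp7 was at 0.27 (SE 0.159) and Olig3 at 0.14 (SE 0.110). Paraxial mesoderm and somite genes were below 0 for 7 of 9 (median -0.15), with mean log2 ratios of -0.21 to 0.04 in mutant pools and -0.01 to 0.19 in wild-type pools. That list holds Uncx, a caudal somite gene at -0.998 (limma adjusted p = 0.182), and Meox2, a somite homeobox gene, at -0.28 (SE 0.149) and -0.19. Heart genes were above 0 for 6 of 10 (median 0.03), with mean log2 ratios of -0.03 to -0.01 in mutant pools and -0.07 to -0.04 in wild-type pools. Tnnt2, a troponin gene, was at 0.29 (SE 0.082, limma adjusted p = 0.99996) and 0.30 by its probe sets. Its gene means were higher in all mutant pools than in all wild-type pools (3.98% of all genes). Myh6 was at 0.18 (SE 0.110) and 0.03, with gene means that overlapped. The part of these tissues in the Hedgehog values was not tested. Dll3 itself, by its 1 probe set, was at -0.02 (95% interval -0.20 to 0.16), and the sources used here do not place it relative to the inserted sequence, so it does not check the labels.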

How the data were processed

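The table that the authors deposited holds a linear ratio for 22690 probe sets in each of 6 pools. The unit was inferred: the values lie between 0.266 and 2.498, the median over the pools is 1 (within 0.0015) in 93.4% of rows, and it is lower in 1497. RMA and MAS5 appear, with neither role nor version, per the submitters' processing notes. Array scaling and genome build are not given in the sources used here.

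After removal of 64 control probe sets, log2 ratios of 22626 were fitted with limma 3.58.1 in R 4.3.3 (lmFit, eBayes, genotype only, two-sided), with p-values adjusted by Benjamini-Hochberg over all of them and a threshold of 0.05. No pseudocount or filter was used. By the platform annotation 20380 probe sets have 1 gene symbol, 691 have several and 1555 have none. For gene values and lists, 20351 of the probe sets with 1 symbol were matched to RefSeq by gene identifier and took its symbol. List names were not updated and were looked up among the resulting symbols. The value of a gene is the mean of its probe sets.

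The members and lists were chosen with earlier results of these data known. From each list the genes named are the 2 of smallest p and those whose groups did not overlap, with the targeted gene and, for Shh, Ptch1 and Gli1, the 3 most alike genes. Olig2, Pax1 and Pax9 were named beyond that rule, after their values were seen. The script was tested on simulated data. Figures used matplotlib 3.10.9 in Python 3.11.15.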

Additional observations from a re-analysis of the deposited data

How the results depend on the processing

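No member probe set passed the adjusted threshold in any of up to 15 alternatives per probe set, where the smallest adjusted p was 0.659. Of 222 member values 28 changed sign, in 11 of the 15 probe sets. The 4 without a change of sign were those of Shh, 1446086_s_at of Gli2, and 1416855_at and 1448494_at of Gas1. The cause was not tested. With array weights the log2 difference was -0.071 and -0.0072 for Smo (1427048_at and 1427049_s_at), 0.057 for Hhip (1421426_at) and -0.013 for Cdon. Quantile normalization gave 0.0011 for that Hhip probe set. Without both pools numbered 3 the values were -0.034 and -0.028 for Smo, -0.026 for Gli1, -0.044 for Gli3, 0.021 for Hhip (1421426_at) and -0.0076 for Cdon. The sex score gave 0.012 (SE 0.323) for Ptch1 (1428853_at) and -0.23 (SE 0.161) for Gli3. With each pool left out in turn, the values ran from -0.075 to 0.018 for Ptch1 (1450824_at), -0.026 to 0.33 for Smo (1427048_at), -0.096 to 0.19 for Gli1, -0.091 to 0.13 for Gli2 (1459211_at), -0.058 to 0.084 for Gli3, -0.073 to 0.061 and -0.041 to 0.059 for Hhip (1421426_at and 1438083_at), -0.0086 to 0.058 for Cdon and -0.15 to 0.044 for Gas1 (1456322_at). They ran from 0.0048 to 0.16 for Smo (1427049_s_at), 0.053 to 0.20 for Gli2 (1446086_s_at), 0.098 to 0.20 for Gas1 (1416855_at) and -0.17 to -0.084 for Gas1 (1448494_at). The most variable probe set in place of the mean gave -0.0082 for Hhip (mean 0.0005), a change of sign, -0.20 for Ptch1 (mean -0.12), 0.12 for Smo (mean 0.10), 0.018 for Gli2 (mean 0.063) and -0.042 for Gas1 (mean -0.0089).

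Over all probe sets limma called 0 at the adjusted threshold and 595 at an unadjusted p of 0.05. The count past the adjusted threshold was 1 with array weights, 1 with the replicate number as a block, and 0 to 1 with each pool left out (1 without wild-type replicate 1). The count under an unadjusted 0.05 was 1770 with array weights, 1072 with the block, 267 when the sex score was in the model, and between 319 and 1229 over the fits without 1 pool. Deviations of same-numbered pools from their group means correlated at 0.37, -0.02 and 0.37 across probe sets. No correlation of differently numbered pools is given beside these. Since no label pairs the pools, the block was kept as an alternative. What the pools numbered 1 or 3 may share was not tested. With the replicate block Ptch1 (1428853_at) had a limma p of 0.0369 (adjusted p = 0.993) and Shh one of 0.153, and without mutant replicate 2 Smo (1427048_at) had one of 0.0183. Of all other member values over the alternatives, none had a p under 0.05. Ratios hold no signal over background, so dim probe sets could not be told from bright ones.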
